A study of Mus musculus with 91 samples.

Results

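The acyl-CoA thioesterase genes were 8 genes of the Acot family, Acot1, Acot2, Acot3, Acot4, Acot8, Acot9, Acot12 and Acot13, taken by their symbols in the platform's annotation from the 18193 genes measured. All 8 were found. They were represented by 12 probe sets that carried one of these symbols alone, of which Acot2 had 2, Acot4 had 2, Acot12 had 3 and the other members 1 each. A further probe set was shared by Acot2 and Acot1, and another by Acot10 and Acot9.

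Acyl-CoA thioesterases split an acyl-CoA into a free fatty acid and coenzyme A, the reverse of what the acyl-CoA synthetases do, and so set the balance between activated and free acids in each compartment of the cell. Acot1 and Acot12 encode cytosolic enzymes, Acot2, Acot9 and Acot13 mitochondrial ones, and Acot3, Acot4 and Acot8 peroxisomal ones. In mouse liver several of them are known as targets of PPARα, the nuclear receptor that fatty acids and the fibrate-like compound Wy-14643 activate.

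Liver RNA was measured from 91 adult male mice on a C57BL/6J background, with 1 array per mouse, in 19 groups, of which 15 held 5 mice and 4 held 4. Among C57BL mice, the compounds were phenobarbital (PB, 0.05% w/v in drinking water for 28 or 56 days), CITCO (10 mg/kg into the peritoneum daily), Wy-14643 (WY, 100 mg/kg by gavage), piperonyl butoxide (PBO, 600 mg/kg into the peritoneum), pioglitazone (Pio, 100 mg/kg by gavage), methapyrilene (MePy, 1000 ppm in food), 1,4-dichlorobenzene (DCB, 600 mg/kg by gavage) and cyproterone acetate (CPA, 160 mg/kg by gavage). All of these but the longer phenobarbital group lasted 28 days. CITCO at the same dose was also given for 28 days to mice of the strain C57BL/hCAR/hPXR, whose name carries the human receptors CAR and PXR. Controls received water (H2O, 28 or 56 days) for phenobarbital and corn oil (CO), shared by CPA and DCB. The other controls received carboxymethylcellulose (CMC), in cohorts Co1 for WY, Co2 for PBO, Co3 for MePy, Co4 for CITCO and Co5 for Pio, and in a group of C57BL/hCAR/hPXR mice. The labels do not say whether mice shared a litter, nor at what time of day or after what fast the livers were taken. They do not say in which cells the human receptors are expressed. Probe sets for the mouse receptors Nr1i3 (CAR) and Nr1i2 (PXR) averaged 5.28 ± 0.376 and 4.08 ± 0.246 in the CITCO livers of that strain, and 9.39 ± 0.240 and 7.24 ± 0.194 in those of C57BL mice (SD, n = 5 each).

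Values were the authors' log2 expression values, ranging from 2.61 to 15.34 over all probe sets, with array medians between 5.18 and 5.36, so that a difference of 1 is a 2-fold difference. As a check of the tissue, the mean of 10 hepatocyte markers was at least 12.86 on every array, and albumin was above 10 on 100% of the arrays. The labels Pio and MePy were at odds with marker genes. Cyp2b10, the classical target of the receptor CAR, averaged 11.61 ± 0.487 in livers labelled Pio and 5.55 ± 0.277 in their Co5 controls (SD, n = 5 and 4). Fabp4, a target of PPARγ, the receptor that pioglitazone activates, averaged 7.27 ± 0.397 in livers labelled Pio and 7.60 ± 0.566 in Co5 livers, but 10.34 ± 2.13 in livers labelled MePy and 6.97 ± 0.392 in Co3 livers. These groups are therefore called the livers labelled Pio and labelled MePy. In the WY group, liver 2 stood apart from the other 4: Cidea, a lipid droplet gene, was 4.95 in it and 9.55 to 12.29 in the others, with 4.14 to 5.00 in Co1 livers. The members' results for WY are given with and without it. The test in every comparison was limma's moderated test with Benjamini-Hochberg adjustment over the 18193 genes, and a gene is said to have risen or fallen where its adjusted p was below 0.05. A p-value here sets a difference against the spread between mice within groups, pooled over the 19 groups. It does not include the spread between cohorts. In whole liver RNA fewer cells of a type cannot be told apart from less RNA per cell.

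Acot2, Acot1, Acot4 and Acot3 are neighbours, in that order among protein-coding genes, on chromosome 12, followed by Acot5 and Acot6. Acot12 and Acot13 lie on chromosome 13, Acot8 on chromosome 2 and Acot9 on chromosome X. The 250 bases before an annotated start were available from RefSeq (GRCm38.p6) for 7 of the 8 members, of which the first entry was used for each. Those of Acot1 and Acot2 are shown whole because these genes moved furthest, and the matched stretches of Acot4 and Acot12 because they hold AGGTCA, the core motif of many nuclear receptors, on the opposite strand. Capitals mark that core motif, and in Acot12 also the second, looser copy beside it. For Acot4 and Acot12 the gene record begins upstream of the window's end, so part of these windows lies within the annotated gene.
Acot1, chr12:84009252-84009501, plus strand: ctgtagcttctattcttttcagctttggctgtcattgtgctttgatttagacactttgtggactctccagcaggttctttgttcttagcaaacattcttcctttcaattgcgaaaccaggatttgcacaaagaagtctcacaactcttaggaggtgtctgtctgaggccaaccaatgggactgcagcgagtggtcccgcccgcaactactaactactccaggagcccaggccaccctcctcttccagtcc
Acot2, chr12:83987611-83987860, plus strand: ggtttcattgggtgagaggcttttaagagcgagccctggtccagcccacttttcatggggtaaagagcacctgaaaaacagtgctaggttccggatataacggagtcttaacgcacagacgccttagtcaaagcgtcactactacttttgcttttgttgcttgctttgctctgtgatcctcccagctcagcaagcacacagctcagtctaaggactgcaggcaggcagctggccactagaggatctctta
Acot4, chr12:84038354-84038378, plus strand: agccccgaagcaTGACCTttggccg
Acot12, chr13:91741401-91741430, plus strand: cgtaggacccTGACCTCTCACCTcctaagc
AGGTCA, searched on both strands, was found in the 250 bases of 2 of the 7 members, against 14.0% of the 32851 RefSeq entries of that length. The repeat AGGTCANAGGTCA, on which PPARα binds with its partner RXR, was found in none of the 7 and in 0.0335% of the entries. The looser form AGGTNANAGGTNA, which takes in that repeat, was found in Acot12 alone and in 0.158% of the entries. The windows of Acot1 and Acot2 held none of the 3 motifs, and at equal distance from the start they had the same base at 26.0% of positions. A match describes the letters only.

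All 8 members rose in WY livers against Co1 livers, in a comparison in which 5.55% of all genes rose and 10.6% changed in either direction. The rises spanned 1.34-fold for Acot12 to 7.21-fold for Acot2, with a median log2 fold change of 1.04 over the members and −0.04 over all genes. In 5 members every WY liver was above every Co1 liver, which held for 4.09% of all genes. The WY means of Acot4 (6.69), Acot9 (6.65) and Acot12 (9.85) did not exceed those of H2O controls at 56 days (7.08, 6.71 and 10.42). Co1 livers had the lowest Acot9 mean of the 19 groups, 5.48. Without WY liver 2 all 8 still passed. That liver was the lowest WY liver for 6 members, so leaving it out is a weak check. With each liver left out in turn, 6 to 8 members passed. With only the WY and Co1 livers in the fit 5 did, as Acot4 (adjusted p = 0.0871), Acot8 (0.114) and Acot12 (0.198) were lost.

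Among the cytosolic enzymes, Acot1, which acts on long-chain acyl-CoAs, read 11.61, 8.36, 11.24, 9.34 and 10.38 in the WY livers and 7.58, 7.80, 7.61 and 8.58 in the Co1 livers. The WY livers were spread over more than 3 log2 units, and the lowest of them, liver 2, lay below the highest control. The difference was 2.29 ± 0.478 (SE, adjusted p = 0.000464), or 4.89-fold, and 2.75 without WY liver 2. The SD was 1.34 in WY livers and 0.742 pooled over the groups. Among the alternative limma fits the adjusted p was at most 0.0281. Acot12, whose enzyme hydrolyses acetyl-CoA, read 10.27, 9.62, 10.16, 9.57 and 9.63 in WY livers and 9.31, 9.24, 9.40 and 9.77 in Co1 livers. Its groups overlapped through the fourth control. The difference was 0.42 ± 0.145 (adjusted p = 0.0458), the call nearest to the threshold, and 0.48 (0.0315) without WY liver 2. It did not pass without WY liver 1 (adjusted p = 0.153) or 3 (0.132), nor without Co1 liver 1 (0.125), 2 (0.167) or 3 (0.0863).

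Of the mitochondrial enzymes, Acot2, the matrix counterpart of Acot1, read 12.13, 9.36, 11.94, 11.08 and 12.17 in WY livers and 8.66, 8.43, 8.31 and 8.56 in Co1 livers. Every treated liver was above the controls, and liver 2 was again the lowest. The difference, 2.85 ± 0.271 (adjusted p = 1.57e-13), had the smallest p of the 8 members, and was 3.35 without WY liver 2. The SD was 1.19 in WY livers and 0.417 pooled over the groups, so this SE understates the spread in WY livers. Among the alternative limma fits the adjusted p was at most 0.00315. Acot9 read 6.29, 6.68, 6.40, 6.20 and 7.67 in WY livers and 5.09, 5.88, 5.65 and 5.29 in Co1 livers. Here liver 5 was the high one and liver 2 was not low. The difference was 1.17 ± 0.253 (adjusted p = 0.000788), and 1.16 without liver 2. Acot13, a small thioesterase known to bind the phosphatidylcholine transfer protein, read 11.47, 10.96, 11.30, 11.48 and 11.33 in WY livers and 10.80, 10.96, 10.75 and 10.82 in Co1 livers. Liver 2 and the second control were nearly level, and the other 4 treated livers were clear of the controls. The difference was 0.48 ± 0.130 (adjusted p = 0.00928), and 0.57 without liver 2.

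Of the peroxisomal enzymes, Acot3, which prefers long-chain acyl-CoAs, read 10.09, 8.16, 9.77, 8.74 and 8.53 in WY livers and 7.12, 6.83, 6.36 and 7.71 in Co1 livers. The groups did not overlap, and the difference was 2.06 ± 0.462 (adjusted p = 0.00124), or 2.28 without liver 2. Acot4, which in mouse hydrolyses succinyl-CoA, read 7.42, 6.14, 7.01, 6.39 and 6.48 in WY livers and 5.06, 6.18, 5.63 and 6.23 in Co1 livers. WY liver 2 lay below 2 of the 4 controls. The difference was 0.91 ± 0.270 (adjusted p = 0.0175), or 1.05 without liver 2, and it did not pass without WY liver 1 (adjusted p = 0.0708) or Co1 liver 1 (0.136). Acot8, an enzyme of broad range that also takes bile acid CoA esters, read 9.62, 8.79, 9.35, 8.97 and 8.97 in WY livers and 8.59, 8.73, 8.70 and 8.63 in Co1 livers. All treated livers were above the controls, by a small margin for liver 2, and the difference was 0.48 ± 0.119 (adjusted p = 0.00392), or 0.57 without that liver.

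**Figure D1:**
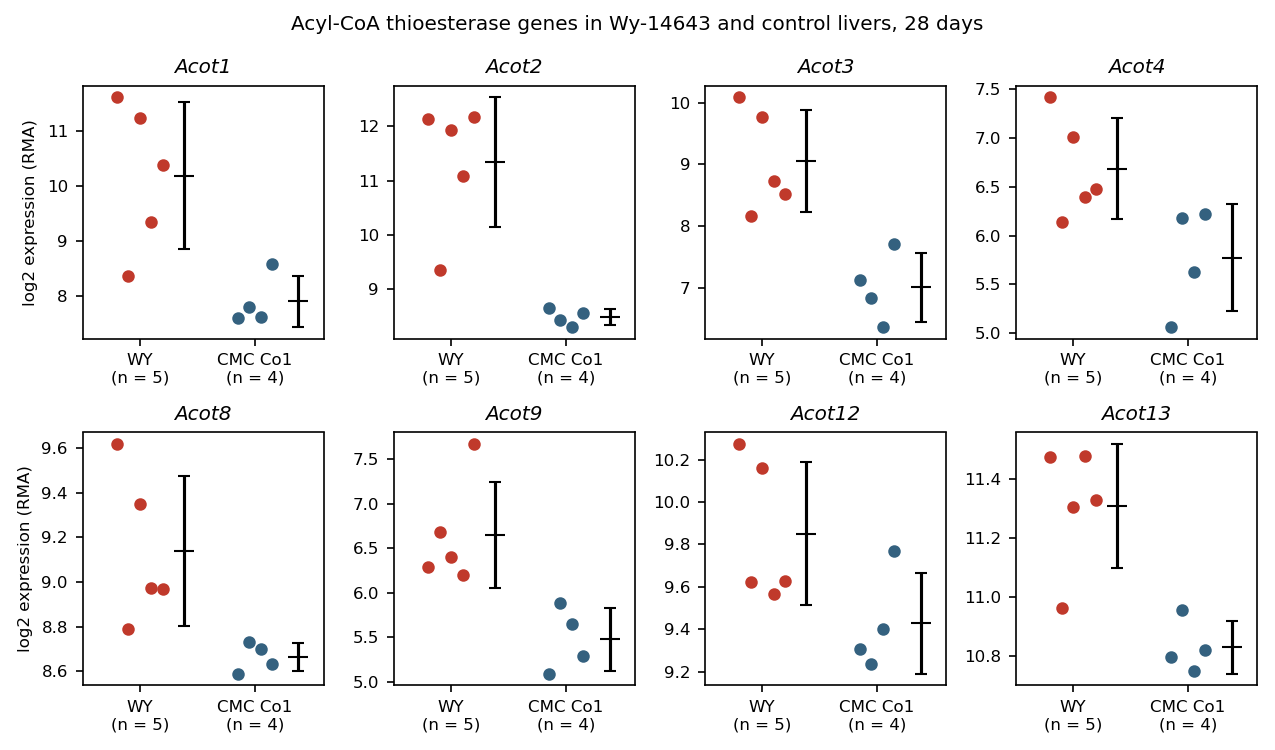
Log2 expression (vertical axis, RMA) of the 8 thioesterase genes in WY livers (red, n = 5) and Co1 control livers (blue, n = 4). Points are livers in the order of their replicate numbers, bars are the mean and SD; the WY livers lie above all controls in 5 panels and overlap them in those of Acot1, Acot4 and Acot12.

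WY liver 2 was the lowest of the 5 for 6 of the 8 members, and liver 1 the highest for 5. The same liver was lowest for Ehhadh, the peroxisomal bifunctional enzyme, at 12.90 against 14.09 to 14.63 in the other WY livers and 11.47 to 11.68 in the Co1 livers. Fabp4 was 11.17 in liver 2 and 12.22 to 13.44 in the other WY livers, with 7.21 to 7.83 in Co1 livers. Cyp4a14, the ω-hydroxylase gene much used as a readout of PPARα, was 13.81 in liver 2 and 14.02 to 14.32 in the other WY livers, with 11.28 to 12.47 in Co1 livers, so liver 2 stood clear of the controls for this gene.

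The probe sets not used for the tests differed in the same direction. The second probe set of Acot2 differed by 2.01 (adjusted p = 5.19e-08 in a fit over all 45037 probe sets) and the one shared by Acot2 and Acot1 by 2.05 (0.00191). That set reads both genes, which are close copies, and how far the sets of Acot1 and Acot2 read each other's transcripts was not tested. The set shared by Acot10 and Acot9 differed by 1.13 (0.00111). The second probe set of Acot4 differed by 0.51 (0.225) and those of Acot12 by 0.36 (0.0992) and 0.10 (0.658), so that neither gene had a second passing probe set, and the Acot12 set used for the tests had an adjusted p of 0.0561 in that fit. The Acot12 set at 0.10 had group means from 3.97 to 4.26, all below the array medians, so it says little about the gene. For the second Acot2 set the Co1 mean, 4.74, was also below them, so the size of its difference is uncertain.

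Other enzymes of acyl-CoA handling were read in the same livers. Of 16 other thioesterases and related acyltransferases, none rose and 3 fell. These were Them4, a mitochondrial thioesterase, at −0.46 (adjusted p = 0.0147), Baat, which conjugates bile acids, at −0.39 (0.0283), and Lypla2, which removes palmitate from proteins, at −0.25 (0.0469). Of 18 acyl-CoA synthetases, the genes of the opposite reaction, 6 rose and none fell, led by Slc27a1 at 1.13, Acsl4 at 1.13, Acsl3 at 0.94 and Acss2 at 0.87. Of 14 genes of coenzyme A synthesis and breakdown, 3 rose and 1 fell: Vnn1 and Vnn3, which encode pantetheinases, by 1.22 and 0.64, Ppcs by 0.46, and the carrier Slc25a16 at −0.39. The medians of these lists were 0.03, 0.32 and 0.07 in the order given, against −0.04 over all genes. Without WY liver 2, 1 of the related thioesterases and acyltransferases rose and 2 fell, Baat no longer passing (0.125). The synthetases then had 7 that rose and 1 that fell, and the coenzyme A list 3 and 0.

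Genes of fatty acid oxidation were read next. Of 17 peroxisomal genes 6 rose and none fell, with Abcd2 at 2.70, Ehhadh at 2.58, Ech1 at 0.90 and Crot at 0.68. Of 16 mitochondrial genes 10 rose and none fell, with Decr1 at 1.06, Hadhb at 1.02, Eci1 at 0.76 and Hadha at 0.73. Of 17 other PPARα targets 7 rose and none fell, led by Cidea at 5.03, Cyp4a31 at 3.53 and the fatty acid transporter Cd36 at 2.69. Cidea differed by 6.20 without WY liver 2, and its Co1 mean of 4.57 lay below the array medians, so the size of its rise is uncertain. Cyp4a14 differed by 2.29 with an adjusted p of 0.0733, although every WY liver was above every Co1 liver. Its SD was 0.213 in WY and 0.535 in Co1 livers, but 2.68 in hCAR/hPXR CITCO livers, which enter the pooled spread. Ppara itself differed by −0.18 (0.632). Of 10 PPARγ targets known from fatty liver 6 rose and 1 fell, with Fabp4 at 5.14 and Lpl at 3.88, and this list shares Cidea, Cidec and Cd36 with the one before. Without WY liver 2, 11 of the peroxisomal genes rose, 12 of the mitochondrial ones and 8 of the other PPARα targets, and of the PPARγ targets still 6 with 1 that fell.

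Cell type markers also moved in WY livers. Of 8 macrophage markers 5 rose, C1qb by 1.70 and C1qa by 1.61 among them, and the mean of the list ran from 7.51 to 8.89 in WY livers and from 6.81 to 7.50 in Co1 livers. Of 6 endothelial markers 1 rose, Lyve1 by 1.57, and their list mean ran from 7.15 to 7.75 in WY livers and from 6.84 to 7.15 in Co1 livers, without overlap before rounding. None of the 3 measured genes listed as adipocyte markers, Adipoq, Lep and Car3, passed. Their list mean, at 7.35 to 7.51 in WY livers and 7.56 to 7.83 in Co1 livers, did not overlap either, and the part of each gene in it is not given here. None of 10 hepatocyte markers passed, and their list mean ran from 13.18 to 13.65 in WY livers and from 13.32 to 13.46 in Co1 livers. Of 12 clock genes 1 fell, Nr1d1 at −0.60. Without WY liver 2 the macrophage and endothelial counts were again 5 and 1, while 2 hepatocyte markers fell and no clock gene passed. The part of cell makeup in the members' rises was not tested.

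WY and pioglitazone were both given at 100 mg/kg by gavage for 28 days, so their responses were set against each other, each relative to its own control. The response was larger under WY for 3 of 8 members, where 1.57% of all genes were so called and 3.02% differed in either direction. The difference of the responses was 3.50 ± 0.383 for Acot2 (adjusted p = 1.65e-10), 2.96 ± 0.676 for Acot1 (0.00406) and 2.66 ± 0.653 for Acot3 (0.00849). The other 5 differences were all positive, from 0.47 to 1.01, with adjusted p-values from 0.0774 to 0.211; Acot8, at 0.51, passed without WY liver 2 (0.59, adjusted p = 0.0284). In livers labelled Pio no member passed against Co5, where 0.022% of all genes did, and 1 had an unadjusted p below 0.05, as did 7.66% of all genes. That was Acot2, at 7.73, 8.01, 8.12, 7.83 and 7.61 in livers labelled Pio and 8.32, 9.16, 8.08 and 8.47 in Co5 livers, a difference of −0.65 ± 0.271 (adjusted p = 0.521). The groups overlapped through 1 liver on each side. Because Cyp2b10 and Fabp4 went against the Pio label, these values hold for the livers so labelled and cannot be assigned to pioglitazone.

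In livers labelled MePy no member passed against Co3, where 0.181% of all genes did, with 8 of 8 log2 fold changes positive, against 52.3% over all genes, and 3 at an unadjusted p below 0.05, against 6.73%. By the labels methapyrilene was given in food and Co3 livers had received CMC, so compound, vehicle and route cannot be told apart in this comparison. Because Fabp4 was at odds with the MePy label, these values hold for the livers so labelled and cannot be assigned to methapyrilene. Acot13 read 10.92, 11.38, 11.16, 10.83 and 11.13 in livers labelled MePy and 10.67, 10.47, 10.50 and 10.87 in Co3 livers. The lowest liver labelled MePy lay just under the highest Co3 liver, and the difference was 0.46 ± 0.130 (adjusted p = 0.186). Acot3 differed by 0.94 ± 0.462 (0.727) and Acot4 by 0.57 ± 0.270 (0.700). The median over the members was 0.44, against 0.01 over all genes. Of the PPARγ targets 5 of 10 rose in these livers, with Fabp4 at 3.37 and Cidea at 3.11, and of the other PPARα targets 3 of 17. The Co3 mean of Cidea, 4.44, was below the array medians, so the size of that difference is uncertain. For both Fabp4 and Cidea the groups overlapped. The lowest liver labelled MePy read 7.44 for Fabp4, with 6.56 to 7.49 in Co3 livers. For Cidea the lowest read 4.33, with 4.27 to 4.69 in Co3 livers.

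**Figure D2:**
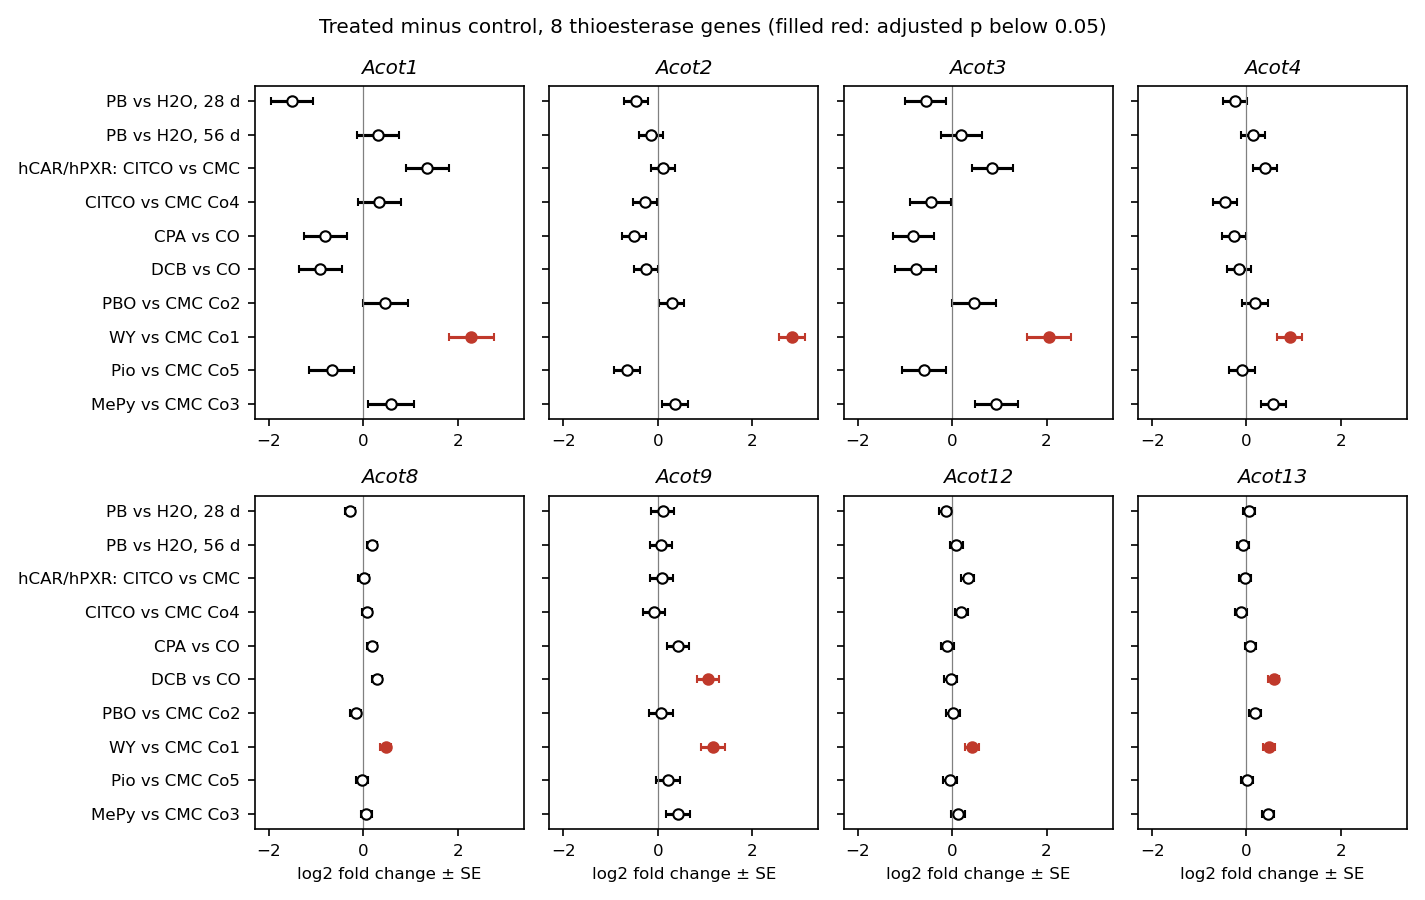
Log2 fold change with its SE (horizontal axis) of each member in the 10 comparisons of a compound with its control, filled red where the limma adjusted p was below 0.05. All 8 members are red in the WY row, Acot9 and Acot13 also in the DCB row, and no other point is.

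Dichlorobenzene and cyproterone acetate, both given by gavage, were set against the same corn oil livers. In DCB livers 2 of 8 members rose, Acot9 and Acot13, where 2.15% of all genes rose and 3.83% changed in either direction. Acot9 read 7.97, 7.69, 7.30, 7.38 and 7.59 in DCB livers and 6.24, 6.99, 7.02, 6.25 and 6.12 in CO livers. Every DCB liver was above every CO liver, and the controls fell into a higher pair and a lower trio. The difference was 1.06 ± 0.239 (adjusted p = 0.00232), or 2.09-fold. The probe set shared by Acot10 and Acot9 differed by 0.94 (0.00973).

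Acot13 read 11.79, 11.07, 10.87, 11.24 and 11.20 in DCB livers and 10.73, 10.71, 10.74, 10.54 and 10.58 in CO livers. Again no CO liver reached a DCB liver, which 2.35% of all genes showed in this direction, and the CO livers lay within 0.2 of each other. The difference was 0.57 ± 0.122 (adjusted p = 0.00116), or 1.49-fold, but it did not pass when only the DCB and CO livers were fitted (0.0596). Acot8 differed by 0.29 ± 0.112 (0.151) and passed without CO liver 1 (0.0407). Acot1 went the other way, at 8.11, 7.69, 8.41, 7.64 and 7.45 in DCB livers and 9.27, 8.47, 8.73, 8.38 and 9.00 in CO livers. The third DCB liver alone reached the lowest CO liver, and the difference was −0.91 ± 0.451 (0.325). It passed with only these 2 groups in the fit (0.0333). Of 10 hepatocyte markers 4 fell in DCB livers, Ahsg by 0.44, Fgb by 0.37, Serpinc1 by 0.15 and Apoa1 by 0.15, and none of 8 macrophage markers passed. Their part in the members' rises was not tested.

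In CPA livers no member passed against CO, where 5.32% of all genes did. None had an unadjusted p below 0.05 in limma's test, against 17.8% of all genes. Acot1 read 9.79, 6.73, 8.80, 8.40 and 6.10 in CPA livers and 9.27, 8.47, 8.73, 8.38 and 9.00 in CO livers. The CPA livers had an SD of 1.52, the widest of the 19 groups for this gene, with 2 of 5 far below the controls and 1 above them, and the difference was −0.81 ± 0.451 (adjusted p = 0.347). Other genes of fatty acid metabolism did fall in CPA livers: 6 of 17 peroxisomal genes, Abcd2 at −2.26 and Acaa1b at −1.02 among them, 3 of 16 mitochondrial genes, with Cpt1a at −1.02, and 4 of 17 other PPARα targets, with Cyp4a14 at −3.20. Ppara fell by 1.14. Of the other thioesterases and related acyltransferases 3 rose, the acyltransferase Acnat2 by 3.36, Acot11 by 1.12 and Them7 by 0.68. Clock genes differed in these livers too, with Dbp at −2.24 and Per3 at −1.58.

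Set directly against each other, CPA and DCB livers differed in 1 of 8 members, where 2.37% of all genes were lower under CPA and 4.11% differed in either direction. Acot13 read 10.84, 11.04, 10.58, 10.75 and 10.52 in CPA livers, against the DCB values above. The third DCB liver lay among the CPA livers, and the difference was −0.49 ± 0.122 (adjusted p = 0.00706). It did not pass without DCB liver 1 (0.0843) or with only these 2 groups in the fit (0.238). Acot9 read 6.70, 7.97, 6.68, 6.96 and 6.46 in CPA livers, of which the second was as high as the highest DCB liver. The difference was −0.63 ± 0.239 (0.136), and −0.89 (0.0131) without CPA liver 2.

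**Figure D3:**
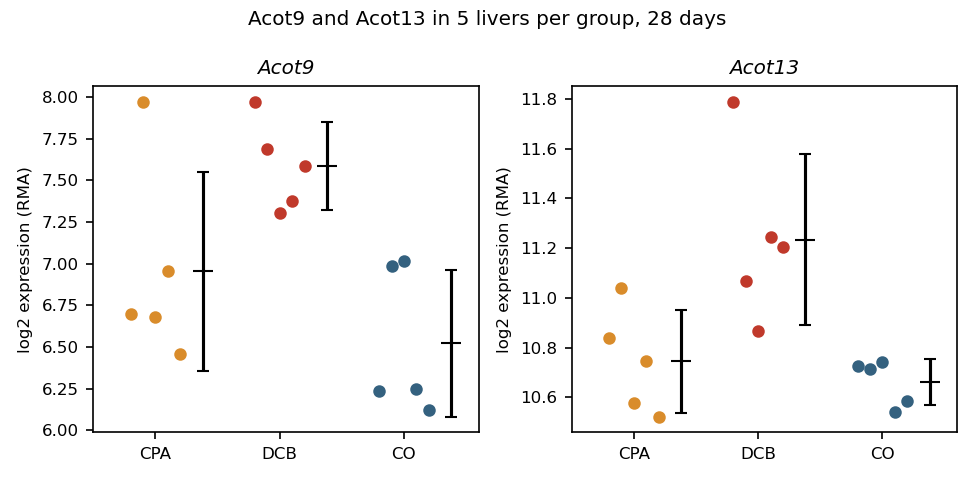
Log2 expression (vertical axis, RMA) of Acot9 and Acot13 in CPA, DCB and corn oil (CO) livers, with the mean and SD beside the 5 livers of each group. All DCB points lie above all CO points for both genes, while the CPA points overlap both groups.

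Under phenobarbital, which activates CAR, no member passed limma's test at either time. At 28 days 0.967% of all genes changed against H2O, and 2 members had an unadjusted p below 0.05, as did 9.07% of all genes. At 56 days 0.566% of all genes changed, and no member had an unadjusted p below 0.05, against 6.78% of all genes. Acot1 had the lowest unadjusted p among the members at 28 days. It read 8.06, 6.49, 7.73, 7.61 and 7.97 in PB livers and 10.30, 9.43, 8.88, 8.26 and 8.56 in H2O livers. Every PB liver was below every H2O liver, which held for 2.24% of all genes. The difference was −1.51 ± 0.451, adjusted p = 0.0917, and its 95% interval ran from −2.41 to −0.62. A fit of the PB and H2O livers alone gave an adjusted p of 0.0358.

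At 56 days Acot1 read 9.66, 7.84, 7.56, 9.29 and 8.79 in PB livers and 8.16, 8.57, 8.51, 8.56 and 7.78 in H2O livers. The groups overlapped, and the difference was 0.31 ± 0.451 (adjusted p = 0.991). The response at 56 days minus that at 28 days was 1.82 ± 0.637 for Acot1 (0.740) and 0.47 ± 0.158 for Acot8 (0.714). No gene at all passed this test of the difference (0% of all genes), and 2 members had an unadjusted p below 0.05, as did 4.83% of all genes, so a difference between the times was not shown. Of the H2O controls, the 56 day livers differed from the 28 day livers in no member, with 0.033% of all genes called and 1 member under an unadjusted p of 0.05, against 5.75% of all genes. That was Acot13, at 0.26 ± 0.122 (0.782). Time and cohort cannot be told apart in these controls. The related genes Them4 and Pex11a fell under phenobarbital at 28 days, by 0.54 and 0.78, and Acsm1, an acyl-CoA synthetase of medium-chain acids, rose by 0.39 at both times.

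Under CITCO, an agonist of human CAR, no member passed limma's test in either strain. In hCAR/hPXR livers 0.0989% of all genes changed and 2 members, Acot1 and Acot12, had an unadjusted p below 0.05, as did 7.00% of all genes. Acot1 read 7.65, 8.33, 7.95, 7.04 and 7.19 in CITCO livers and 6.46, 6.94, 5.80, 5.75 and 6.43 in CMC livers of that strain. Every treated liver was above every control, which held for 1 of 8 members and 1.28% of all genes, and the difference was 1.35 ± 0.451 (adjusted p = 0.365). In C57BL livers 0.0055% of all genes, 1 gene, changed, and no member had an unadjusted p below 0.05, against 4.80% of all genes. Acot1 read 8.45, 8.54, 7.38, 7.59 and 7.51 in CITCO livers and 7.81, 7.18, 8.81, 7.00 and 6.98 in Co4 livers, a difference of 0.34 ± 0.451 (1.00 after adjustment, to 2 decimals).

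The response of hCAR/hPXR mice minus that of C57BL mice was 1.02 for Acot1, with a 95% interval from −0.25 to 2.29, 1.30 for Acot3, from 0.08 to 2.53, and 0.85 for Acot4, from 0.13 to 1.56. None passed, with adjusted p-values of 1.00 to 2 decimals, while 0.0055% of all genes did, and the unadjusted p was below 0.05 in 2 members, Acot3 and Acot4, and in 2.02% of all genes. CMC livers of hCAR/hPXR mice had 7 of 8 members lower than Co4 livers, against 46.3% of all genes. None passed, with 0.126% of all genes called, and 3 members were under an unadjusted p of 0.05, against 6.51%. Acot1 differed by −1.28 ± 0.451 (adjusted p = 0.427) and Acot4 by −0.82 ± 0.254 (0.291). In these 2 members every hCAR/hPXR liver was below every Co4 liver, which held for 0.544% of all genes. Strain and cohort cannot be told apart here.

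Piperonyl butoxide livers differed from Co2 livers in no member, where 0.808% of all genes changed, and no member had an unadjusted p below 0.05, against 12.4% of all genes. Acot1 read 5.39, 5.97, 5.58 and 5.09 in PBO livers and 4.57, 4.75, 4.84, 5.43 and 5.64 in Co2 livers. The groups overlapped and were low together, their means of 5.51 and 5.04 being the lowest of the 19 groups and close to the array medians. Genes that rose in PBO livers included Vnn1, by 1.58, and Cd36, by 1.90.

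The 5 C57BL control cohorts given carboxymethylcellulose carry the same strain, vehicle and duration in the labels, which do not state the vehicle's route. The compounds they were paired with went into the peritoneum (Co2 and Co4), by gavage (Co1 and Co5) or in food (Co3), so that route and cohort cannot be told apart. Between the cohorts 3 of 8 members differed by limma's F test, where 33.2% of all genes did. Acot1 ran from 5.04 ± 0.463 in Co2 livers to 8.58 ± 1.01 in Co5 livers (SD, n = 5 and 4; adjusted p = 9.28e-09), and the Co2 mean lay below the array medians. Acot12 ran from 8.72 ± 0.355 in Co2 to 9.87 ± 0.159 in Co3 livers (1.25e-10), and Acot4 from 5.27 ± 0.264 in Co2 to 6.53 ± 0.249 in Co4 livers (0.000636). Co2 was the lowest cohort in all 3. Without Co2 no member passed the F test, with Acot1 at an adjusted p of 0.461, while 12.6% of all genes still did.

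Co2 livers also had the lowest Cyp4a14, at 6.90 ± 1.22, against cohort means from 10.41 to 11.83 in the other 4. The hepatocyte list mean ran from 13.24 to 13.68 in Co2 livers and from 13.32 to 13.75 in the other cohorts, and the macrophage list mean from 8.24 to 8.90 and from 6.25 to 9.20. The mean of 4 cholangiocyte markers ran from 5.95 to 6.44 in Co2 livers and from 5.38 to 5.83 in the other cohorts, so every Co2 liver was above them, and its part in the members' differences was not tested. Each compound was therefore read against its own cohort only. Against all C57BL CMC livers together, PBO livers differed by −1.89 in Acot1 (adjusted p = 8.21e-05) and by −0.76 in Acot12 (2.74e-07), against 0.46 and 0.01 in the comparison with Co2.

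**Figure D4:**
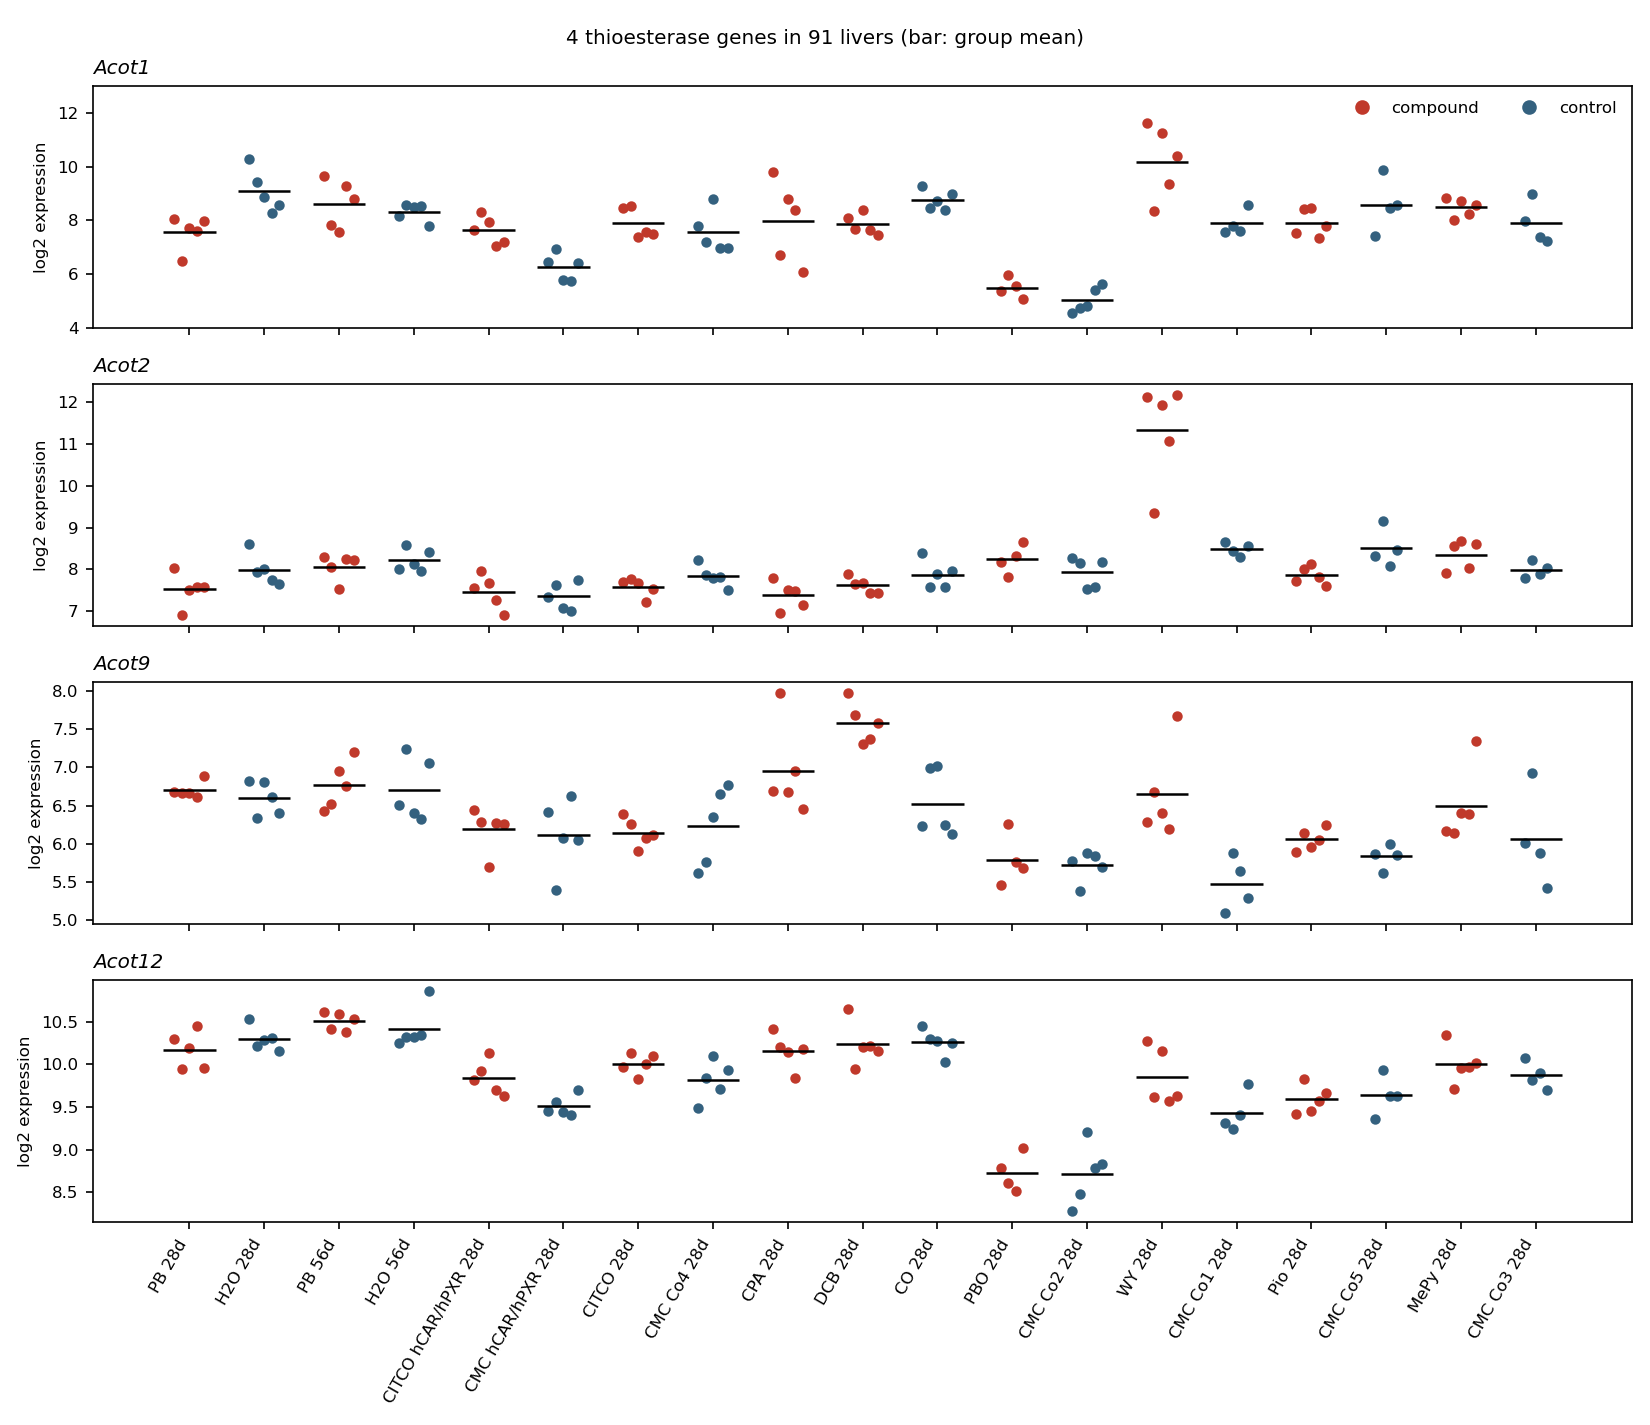
Log2 expression (vertical axis) of Acot1, Acot2, Acot9 and Acot12 in all 91 livers, by group, each compound (red) left of its control (blue), with a bar at the group mean. Acot1 and Acot12 are low in both PBO and Co2 livers, Acot2 is high in WY livers, and Acot9 is highest in DCB livers.

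Over the 19 groups the members ranked the livers differently. WY livers had the highest mean of Acot1 (10.18), Acot2 (11.34), Acot8 (9.14) and Acot13 (11.31). DCB livers had that of Acot9 (7.58), and PB livers at 56 days those of Acot3 (9.22), Acot4 (7.22) and Acot12 (10.50), each next to the H2O livers of the same time or the WY livers and within the spread of these. Highest and lowest group means of Acot1 were 10.18 in WY and 5.04 in Co2 livers, and no fold is given because the Co2 mean lay below the array medians. They were 15.7-fold apart for Acot2 and 7.57-fold for Acot3. They were 4.30-fold apart for Acot9, 3.85-fold for Acot4, whose lowest mean of 5.27 was within the range of the array medians, and 3.46-fold for Acot12, and 1.80-fold and 1.74-fold for Acot8 and Acot13.

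Neighbours in these orders mostly lay within each other's spread. Of 18 steps from a group to the next lower one, the gap was larger than the larger SD of the 2 groups in 2 for Acot1, 2 for Acot9, 1 each for Acot2, Acot4 and Acot12, and 0 for Acot3, Acot8 and Acot13. For Acot2 that step was from WY livers to the next group, Co5, a gap of 2.83. For Acot9 they were from DCB to CPA livers (0.63) and from livers labelled Pio to Co5 (0.22). For Acot12 it was from Co1 to PBO livers (0.70), and for Acot4 from hCAR/hPXR CMC to PBO livers (0.26). For Acot1 they stood either side of the hCAR/hPXR CMC livers, 1.28 below Co4 and 0.77 above PBO.

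Mouse to mouse, the chromosome 12 members were positively correlated in all 6 pairs, with each value taken minus its group mean. Acot3 and Acot4, next to each other on the chromosome, had r = 0.85 and rho = 0.80 over 91 livers. This was r = 0.83 without the 2 livers farthest out on Acot4, and 0.84 over the 86 livers without WY. The H2O liver at 56 days with the highest Acot3 was not among the 2 left out. Acot1 and Acot2 had r = 0.64 (rho = 0.59), Acot1 and Acot4 0.62 (0.55), Acot2 and Acot3 0.61 (0.67), Acot2 and Acot4 0.56 (0.56) and Acot1 and Acot3 0.53 (0.52). Genes outside the cluster could be closer: Acot1 had 0.68 with Hsdl2 and 0.67 with Acadm, above its value with Acot2. Acot9 stood outside this, with r from −0.21 to 0.08 against the other 7. The points share the normalization of the arrays, and probe sets of close copies may share transcripts, so these values are descriptions.

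**Figure D5:**
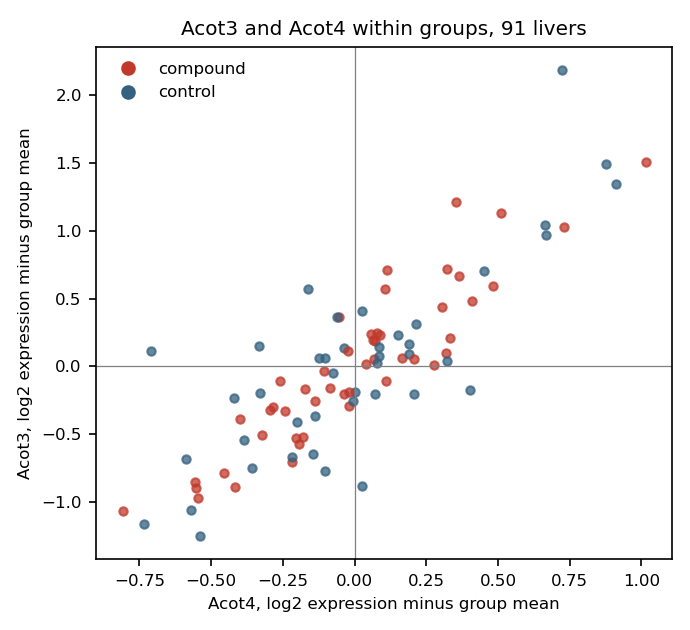
Acot3 (vertical axis) against Acot4 (horizontal axis), log2 expression minus the mean of the liver's own group, for 91 livers, compound-treated ones in red and controls in blue. The points run along a rising line (r = 0.85), the highest being an H2O liver at 56 days with Acot3 at 11.22.

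The genes most like each member over all 91 livers, by Pearson correlation of log2 values, differed from one member to the next. For Acot1 they were Hsd17b4 (0.85), Acadm (0.85) and Hsdl2 (0.85), for Acot2 Cyp4a31 (0.89), Mogat1 (0.87) and Cox6b2 (0.86), though with Spearman values of 0.65, 0.57 and 0.26. For Acot3 they were Acot4 (0.86), Acadl (0.69) and Khdrbs3 (0.68), and for Acot4 Acot3 (0.86), Dhrs4 (0.81) and Mmadhc (0.79). For Acot8 they were Etfb (0.71), Ech1 (0.71) and Mcrip2 (0.67). For Acot9 they were Tceal8 (0.84), Rcn2 (0.81) and Nagk (0.81), for Acot12 Mpc1, the mitochondrial pyruvate carrier, Gch1 and Mmadhc (all 0.92), and for Acot13 Mgst3 (0.79), Gtf2h5 (0.70) and Gal3st1 (0.70). With group means removed, Acot2 was most like Acadl (0.74), Acot9 most like Actr3 (0.74) and Ifngr1 (0.74), Acot12 most like Ces1d (0.74) and Acot13 most like Ndufb10 (0.75), a subunit of respiratory complex I.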

How the data were processed

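Liver RNA of 91 mice had been hybridised to Affymetrix mouse arrays with a 3′ in vitro transcription kit, per the labels' protocols. The authors' deposited values are log2 expression values made with RMA, per the submitters' processing notes; the software version and genome build are not given in the sources used here. No further normalization was applied. Of 45037 probe sets, 34945 carried 1 gene symbol in the platform annotation, 932 several and 9160 none, and where several such probe sets named 1 of the 18193 genes, the brightest by its mean stood for it. A means model with 1 coefficient for each of 19 groups (72 residual degrees of freedom) was fitted with limma 3.58.1 in R 4.3.3, with a mean-variance trend and Benjamini-Hochberg adjustment over all genes, and tests were two-sided. Groups came from the labels. No 2 arrays held identical values, and the number of arrays limits the precision. The fit was tested on simulated data.

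The members and gene lists were chosen with earlier results of these data known, so no p-value is adjusted over a list alone. All 8 members are named, with up to 4 genes of each list that had the largest absolute change among those past the threshold, plus marker and receptor genes of the label check. Likeness was the Pearson correlation of log2 values, and the 3 highest genes are named. All 8 members passed the filter on dim genes that was tried as an alternative. Other alternatives were the fit without the trend, quantile normalization, median centring, the mean of a gene's probe sets, the replicate number as a block, only the groups compared, all CMC cohorts as controls, and leaving out each liver. Same-numbered livers did not deviate together: of 46 pairs, 7 had a correlation over 0.1, so the numbers were not taken as pairs.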

Additional observations from a re-analysis of the deposited data

Results flagged for a closer look

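Within each group of 4 or 5 livers, the highest and the lowest value of each member were compared with the rest by Dixon's test, and 9 of 152 sets of values held a liver that stood apart. Chance alone gives about 1 in 20.

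Of these, 3 came from H2O liver 5 at 56 days, which was high for Acot3 at 11.22 (the other livers of the group read 7.97 to 8.83), for Acot12 at 10.86 (others 10.25 to 10.34) and for Acot13 at 11.28 (others 10.81 to 10.91). PB liver 5 at 28 days was high for Acot9 at 6.88 (others 6.61 to 6.68) and low for Acot13 at 10.35 (others 10.75 to 10.86). PB liver 2 at 28 days was low for Acot1 at 6.49 (others 7.61 to 8.06). Co3 liver 2 was high for Acot3 at 7.69 (others 6.30 to 6.52). Acot9 was low in liver 3 of the CITCO hCAR/hPXR group at 5.70 (others 6.25 to 6.45) and high in liver 5 of the group labelled MePy at 7.35 (others 6.15 to 6.40).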

How the results depend on the processing

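The count of members that passed stayed within 1.5 times its value, or at 0, under the fit without the trend, quantile normalization, median centring, the filter on dim genes, the mean of probe sets and the replicate block. Fitting only the groups compared gave 5 in place of 8 members for WY (Acot4, Acot8 and Acot12 did not pass), 1 in place of 0 for PB at 28 days (Acot1) and 0 in place of 1 for CPA against DCB. It also brought Acot2 past the threshold between CMC cohorts (adjusted p = 0.0175). With all C57BL CMC cohorts as controls, 2 members passed for CITCO in C57BL mice, 2 for PBO and 5 for livers labelled MePy, and for PBO the sign turned for Acot1 (−1.89) and Acot12 (−0.76). The share of all genes called with these pooled controls is not given here, and 33.2% of all genes differed between the CMC cohorts. These counts are therefore not read as results about the members. Leaving out each liver gave counts of 6 to 8 for WY, 2 to 3 for DCB, 0 to 2 for CPA against DCB, 3 to 4 for the WY minus Pio response and 3 to 4 for the CMC cohorts, and 0 in the other comparisons. With the replicate block Acot12 did not pass in WY livers (adjusted p = 0.0543), nor with quantile normalization (0.0546), and the block changed no other call of a member. The causes of these changes were not tested, and the probe-set fit, the F test without Co2 and the gene lists without WY liver 2 were added after the data had been seen.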
